A study of Mus musculus with 12 samples.

Results

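The chromatin described here lies around 10 genes of Toll-like receptor sensing in mouse B cells: *Tlr1*, *Tlr2*, *Tlr3*, *Tlr4*, *Tlr6*, *Tlr9*, *Cd180*, *Ly86*, *Unc93b1* and *Myd88*. A region belonged to the set when one of these was the protein-coding gene it overlapped, or the nearest one where it overlapped none. That rule took 122 of the 94161 regions in the deposited table, of which 35 overlapped a gene body, 22 lay within 20 kb of one and 65 lay farther away. *Ly86* had 41 regions, *Cd180* 20, *Tlr4* 19, *Tlr1* 12, *Tlr2* 8, *Tlr3* 7, *Unc93b1* 7, *Tlr6* 4, and *Tlr9* and *Myd88* 2 each. The regions were 127 to 1898 bp wide, with a median of 402.5 bp. Nearness does not show that a region acts on that gene.

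The measurement was ATAC-seq, in which the Tn5 transposase cuts and tags DNA that nucleosomes leave open. Unstimulated B cells came from spleens of female C57BL/6J mice. Marginal zone B cells (MZB) were gated as CD23-, CD21hi and CD1d+, and follicular B cells (FoB) as CD23+, CD21mid and CD1d-, and both gates required B220 and excluded Thy1.1, F4/80, CD11b, CD93 and GL7. For each cell type there were 3 wild-type libraries and 3 from mice labelled knockout for LSD1, the histone demethylase encoded by *Kdm1a*, each made from 10000 cells. The labels name no Cre line, no cell type of deletion, no age and no animal for a library, so p-values measure the spread between libraries.

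Reads over all regions ran from 3169966 (MZB knockout 2) to 10375328 (FoB wild-type 2) per library. Values are reads per peak scaled to 1000000 reads over the regions (rppm), so 3 reads correspond to 0.2891 to 0.9464 rppm, and intervals on reads cover counting error only. The 1 region at *Kdm1a*, which overlaps the gene, held 16.48 to 29.65 rppm in MZB and 20.49 to 24.91 rppm in FoB and passed no test. Where the deletion lies within the gene is not stated, so this region does not check the labels. The regions of *Fcer2a*, which encodes the gating marker CD23, summed to 44.8 to 53.18 rppm in wild-type MZB and 92.26 to 102.2 rppm in wild-type FoB. Those of 6 MZB genes (*Cr2*, *Cd1d1*, *Cd9*, *S1pr3*, *Dtx1* and *Plac8*) summed to 987.7 to 1028 and 716.3 to 729.4 rppm, in the order the labels give. These sums, and those of the marker lists below, cover only regions that overlap a gene body or lie within 20 kb of it. That was 5 of 5 regions for *Fcer2a* and 62 of 100 for the MZB genes. Fewer cells with an open region and a lower chance of cutting in each cell cannot be told apart in bulk libraries.

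Toll-like receptors sense microbial molecules, at the cell surface or in endosomes. TLR2 pairs with TLR1 or TLR6 to bind lipoproteins, TLR4 with its partner MD-2 binds lipopolysaccharide, TLR3 binds double-stranded RNA and TLR9 binds unmethylated CpG DNA. CD180 (RP105) is a relative of TLR4 that is abundant on B cells and reaches the surface bound to MD-1, the product of *Ly86*. UNC93B1 carries the endosomal receptors from the endoplasmic reticulum, and MyD88 is the adaptor of nearly all of them, TLR3 excepted. Marginal zone B cells are known for rapid answers to such ligands.

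RefSeq promoter sequences (GRCm38.p6, 250 bases before to 50 after a start) were matched for 8 of the 10 genes. The 4 printed here show the sequence under start regions that did not differ between the cell types by limma (*Tlr9*, *Cd180*, *Ly86* and *Tlr3*), and each lies wholly inside an accessible region. Both strands were searched for a PU.1 motif (GAGGAAGT), an octamer (ATGCAAAT), an E2A motif (CAGGTG), a RUNX motif (TGTGGT) and an RBPJ motif (TGGGAA). Capitals mark the matches, which did not overlap one another.
Tlr9, chr9:106222348-106222647, plus strand: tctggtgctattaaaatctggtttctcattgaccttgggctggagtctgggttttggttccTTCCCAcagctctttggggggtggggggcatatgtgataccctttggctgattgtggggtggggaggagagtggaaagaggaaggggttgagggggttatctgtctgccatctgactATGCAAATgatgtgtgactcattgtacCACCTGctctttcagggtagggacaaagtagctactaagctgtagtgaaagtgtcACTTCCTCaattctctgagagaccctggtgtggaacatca
Cd180, chr13:102693297-102693596, plus strand: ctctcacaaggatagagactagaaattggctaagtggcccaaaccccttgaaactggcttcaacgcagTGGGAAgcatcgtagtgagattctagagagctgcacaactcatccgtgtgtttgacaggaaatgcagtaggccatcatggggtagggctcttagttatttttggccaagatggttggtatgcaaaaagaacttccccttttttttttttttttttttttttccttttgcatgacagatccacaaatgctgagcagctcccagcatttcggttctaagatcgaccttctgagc
Ly86, chr13:37345095-37345394, plus strand: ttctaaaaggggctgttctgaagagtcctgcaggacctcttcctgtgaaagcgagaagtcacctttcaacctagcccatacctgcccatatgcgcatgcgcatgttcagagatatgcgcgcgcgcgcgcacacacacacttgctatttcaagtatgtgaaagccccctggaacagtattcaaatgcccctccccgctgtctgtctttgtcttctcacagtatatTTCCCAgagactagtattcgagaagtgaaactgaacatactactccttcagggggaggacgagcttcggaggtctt
Tlr3, chr8:45410331-45410630, minus strand: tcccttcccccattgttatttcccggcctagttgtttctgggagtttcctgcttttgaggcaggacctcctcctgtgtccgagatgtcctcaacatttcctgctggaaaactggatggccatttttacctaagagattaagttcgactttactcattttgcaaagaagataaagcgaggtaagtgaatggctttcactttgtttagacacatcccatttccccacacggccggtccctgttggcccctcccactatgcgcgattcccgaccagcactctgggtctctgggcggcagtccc
The *Tlr9* sequence held 4 of the 5 motifs: RBPJ, the octamer and E2A beginning 189, 72 and 45 bases before the start, and PU.1 beginning 10 bases after it. The *Cd180* and *Ly86* sequences held an RBPJ match beginning 182 and 26 bases before the start. The *Tlr3* sequence held none of these letters. Of 32851 promoters of the same length, 3.2% held the PU.1 letters, 1.74% the octamer, 20.2% E2A, 16.8% RUNX and 25.6% RBPJ. A match describes the letters and does not show binding.

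At the gene starts that a region covered, no difference between the groups passed by limma. Each gene had 1 region across a listed start, or, for *Tlr4* and *Unc93b1*, whose start was not used here, across the end of the gene body with the lower coordinate. This held for all 10 in every comparison (moderated test on log2(rppm + 0.5), adjusted by Benjamini-Hochberg over 89782 tested regions, threshold 0.05), with a smallest adjusted p of 0.0782 between wild-type MZB and FoB and 1 to 2 of 10 at an unadjusted p under 0.05 in each comparison. Their log2 fold changes of MZB over FoB ran from -0.21 to 0.12 in wild-type and from -0.28 to 0.03 in knockout libraries, below the medians of all tested regions (0.18 and 0.14). With edgeR on recovered reads and its TMM scaling, 3 of the 10 were lower in wild-type MZB (*Tlr9*, *Ly86* and *Tlr4*, with adjusted p of 0.000651, 0.00833 and 0.0173), and DESeq2 called the same 3 regions. In knockout libraries edgeR called the starts of *Tlr3*, *Tlr2* and *Tlr4* lower in MZB (0.00317, 0.00481 and 0.00633), as did DESeq2 (0.0327, 0.0413 and 0.0198), and quantile normalisation that of *Tlr6* (0.0382). Without FoB wild-type library 3, the *Tlr9* start was lower in MZB by limma as well (adjusted p = 0.0309). *Tlr1* and *Tlr6* each had another listed start that no region covered. The covered *Tlr6* start lies inside the body of this minus-strand gene (chr5:64953092-64970942). A *Tlr6* region nearer the higher-coordinate end, beginning at 64968984, was lower in knockout MZB than in knockout FoB by limma, edgeR and DESeq2. That limma call was lost with quantile normalisation (0.167) and without any of 3 knockout libraries (0.082 to 0.101).

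**Figure D1:**
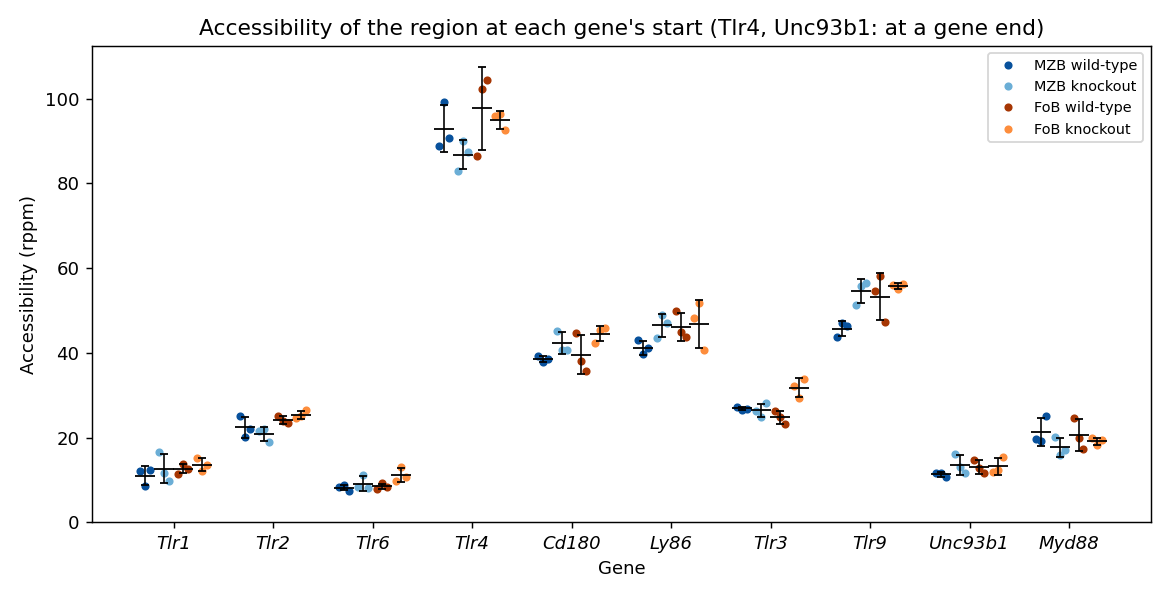
Accessibility (rppm, y axis) of the region at the start of each gene (x axis) in the 12 libraries; points are libraries, black bars the mean ± SD of 3 libraries per group. Group means run from 8.201 to 97.7 rppm, and the 4 groups of each gene lie close together. Values are per region and not per length.

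Per kb of region, the *Tlr4* region was the most open of these, at 67.6 to 84.9 rppm per kb over the 12 libraries. *Tlr9* followed with 56.6 to 75.2, *Ly86* with 51 to 66.6 and *Cd180* with 47.3 to 60.4 rppm per kb. *Unc93b1* had 31.4 to 47.7, *Myd88* 26.1 to 41.6 and *Tlr3* 24.5 to 35.8 rppm per kb. The start regions of the lipoprotein receptors had the lowest means, with *Tlr6* at 18.8 to 32.6, *Tlr1* at 15.8 to 30.8 and *Tlr2* at 17.6 to 24.6 rppm per kb. Each of these ranges overlapped that of *Tlr3*. Each gene's range overlapped that of the next in this order, so only genes farther apart in it are separated.

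The start of *Tlr9*, the CpG DNA receptor (chr9:106222078-106222850), had 43.72, 47.05 and 46.34 rppm in wild-type MZB and 51.31, 55.84 and 56.45 rppm in knockout MZB. In FoB it had 54.48, 58.02 and 47.27 rppm in wild-type and 56.08, 55 and 56.17 rppm in knockout libraries. The wild-type MZB libraries were the lowest 3 of the 12, and the difference from FoB was -0.21 ± 0.10 (log2, SE, n = 3 and 3, limma adjusted p = 0.0782). The second *Tlr9* region, just inside the gene, gave -0.42 ± 0.17 (adjusted p = 0.0594), and both were lower in MZB by edgeR and DESeq2. By limma this second region passed with quantile normalisation (0.00578) and a filter at 5 rppm (0.0484). It also passed without MZB wild-type library 1 (0.0275) or FoB wild-type library 3 (0.0303). The *Tlr3* start (chr8:45409690-45410634) had 26.28, 24.87 and 23.16 rppm in wild-type FoB and 32.28, 29.25 and 33.8 rppm in knockout FoB. Those groups did not overlap, but limma gave 0.35 ± 0.12 (log2, SE) with an adjusted p of 0.218.

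Of the 120 regions that passed the filter, the 10 at starts included, wild-type MZB and FoB differed at 36, all away from the starts. The filter asked for at least 1 rppm in at least 3 libraries, which left out 1 *Ly86* and 1 *Cd180* region of low values. MZB were more accessible at 25 (20.8%, against 24.2% of all tested regions) and less accessible at 11 (9.17%, against 11.4%), shares near the background by limma. The median log2 fold change was 0.12 over these regions and 0.18 over all. At 14 of the 36 the difference was at least 2-fold, 12 of them higher in MZB. Over all 89782 tested regions 15884 were called at this size, 14474 of them higher. None of the 14 overlapped a gene body. The direction depended on the scaling: quantile normalisation gave 15 higher and 23 lower, edgeR 19 and 28, and DESeq2 15 and 21, with medians over all regions of -0.08, 0.05 and 0.05. Over all 89782 tested regions the counts were 13509 and 13806 with quantile normalisation, 18147 and 17032 with edgeR, and 13119 and 11920 with DESeq2. The log2 fold changes below are on the deposited scaling, and 0.18 is the value of a region that moved as the median region did.

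*Tlr3* had 5 of its 7 regions more accessible in wild-type MZB and none less, against 24.2% and 11.4% of all tested regions. The wild-type counts were the same under quantile normalisation, edgeR and DESeq2 and without any 1 library. The knockout counts were 3 higher and 0 lower by limma and with quantile normalisation, 2 and 1 with edgeR, and 1 and 1 with DESeq2. The region 28.96 kb upstream (chr8:45439060-45439612) had 18.62, 15.95 and 15.24 rppm in wild-type MZB and 2.738, 5.301 and 4.536 rppm in wild-type FoB. In knockout libraries it had 14.23, 12.3 and 13.89 rppm in MZB and 4.76, 4.325 and 6.1 rppm in FoB. Every MZB library was above every FoB library, with a log2 fold change of 1.90 ± 0.21 in wild-type (SE, adjusted p = 2.64e-09) and 1.34 ± 0.21 in knockout libraries (adjusted p = 2.9e-06). The most open *Tlr3* region, meaning here and below the one with the highest mean rppm of a gene, lies 4.776 kb upstream (chr8:45414805-45415508) and had 41.56, 41.74 and 47.27 rppm in wild-type MZB and 21.35, 25.54 and 23.88 rppm in wild-type FoB (0.87 ± 0.13, adjusted p = 1.25e-06). In knockout libraries it held 40.12, 38.49 and 49.35 rppm in MZB and 33.11, 35.43 and 23.64 rppm in FoB, a difference of 0.48 ± 0.13 (adjusted p = 0.00352). It was lost with edgeR (0.0587), with DESeq2 (0.133) and without FoB knockout library 3 (0.0726).

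A region 44.12 kb upstream of *Tlr3* was higher in wild-type MZB (10.88 ± 0.445 against 4.996 ± 1.52 rppm, SD, n = 3; log2 fold change 1.09 ± 0.21 SE, adjusted p = 6.23e-05). A sparse region 10.08 kb upstream had 2.699, 6.114 and 4.043 rppm in wild-type MZB, 0.8213, 0.3855 and 0.955 in wild-type FoB, and 1.633, 0.6309 and 1.478 rppm in knockout MZB. Wild-type MZB thus lay above both other groups, but the change with knockout did not pass (-1.44 ± 0.39, adjusted p = 0.0668), although it did with a pseudocount of 2 (0.016) and with a fit on the compared groups alone (0.0332). At the fifth called region, 20.89 kb downstream of the start, 18 reads in wild-type MZB stood against 3 in FoB, a ratio of 10.2 after scaling to depth (95% exact interval of counts 2.99 to 54.2).

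*Cd180* had 8 regions more accessible in wild-type MZB and none less, all 8 upstream of the gene, where 15 regions were tested. None of its 4 regions in the gene body differed in wild-type libraries. The count was 5 with quantile normalisation, 6 with edgeR, 4 with DESeq2 and 5 without FoB wild-type library 3, and it was 0 for lower in each of these. A neighbouring pair of regions showed the clearest difference: the one 155.6 kb upstream (chr13:102537616-102538263) had 22.13, 20.47 and 19.28 rppm in wild-type MZB and 6.297, 6.843 and 7.401 rppm in wild-type FoB, a log2 fold change of 1.52 ± 0.18 (adjusted p = 1.44e-08). The one 153.1 kb upstream (chr13:102540296-102540623) had 6.747, 11.17 and 11.2 rppm against 1.916, 1.349 and 2.149 rppm (2.13 ± 0.30, adjusted p = 4.86e-07). In both, all MZB libraries lay above all FoB libraries. *Cd180* is the nearest protein-coding gene to them, and the next, *Mast4*, lies 194223 bp and 191863 bp away, beyond *Cd180*.

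Closer to *Cd180* the difference was small. The region 3.851 kb upstream, the most open of the gene, had 62.89, 63.01 and 65.62 rppm in wild-type MZB and 52.57, 55.52 and 53.24 rppm in wild-type FoB. The groups did not overlap, with 0.25 ± 0.09 (adjusted p = 0.0384), close to the median region, and the difference was lost with edgeR (0.624), DESeq2 (0.687) and without any 1 of the 6 wild-type libraries (0.0552 to 0.107). The start itself had 39.13, 37.75 and 38.56 rppm in wild-type MZB and 44.63, 38.17 and 35.81 rppm in wild-type FoB, which overlapped. Of the far regions, the one 381.3 kb upstream rose from 1.95 ± 0.064 rppm in FoB to 4.96 ± 0.365 rppm in MZB (SD, n = 3; log2 1.15 ± 0.32 SE, adjusted p = 0.00497), which quantile normalisation did not keep (0.089). In 2 sparse regions, 21 and 13 reads in wild-type MZB stood against 3 and 4 in FoB, ratios of 11.9 (3.56 to 62.5) and 5.54 (1.71 to 23.3) with 95% exact intervals of counts. The second of these calls (adjusted p = 0.0263) was lost with a pseudocount of 0.1 (0.0681), quantile normalisation (0.192), DESeq2 (0.0874) and without MZB wild-type library 2 (0.0972) or FoB wild-type library 2 (0.0774) or 3 (0.0642).

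*Ly86*, whose product MD-1 holds CD180 at the surface, changed in both directions along its neighbourhood. Of its 6 tested upstream regions 3 were more accessible in wild-type MZB and 0 less, and of 22 downstream regions 1 was more and 7 were less accessible. In the gene body 3 of 12 were higher and 1 lower. The downstream counts were 0 and 14 with quantile normalisation, 1 and 11 with edgeR and 0 and 8 with DESeq2, and the upstream counts were 2 and 0 in all 3. Over the whole gene, the 7 higher fell to 4 without MZB wild-type library 1 or 3 or FoB wild-type library 1.

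The lower downstream regions of *Ly86* lay 87.63 to 137.4 kb downstream of the start. That 107.2 kb downstream (chr13:37452165-37452835) had 20.24, 19.67 and 16.48 rppm in wild-type MZB against 41.61, 35.18 and 35.1 rppm in wild-type FoB (-0.97 ± 0.12, adjusted p = 7.88e-08). The next, 108 kb downstream (chr13:37453155-37453636), had 9.176, 9.039 and 9.329 against 21.35, 20.34 and 20.29 rppm (-1.13 ± 0.15, adjusted p = 1.84e-07). A smaller one, 95.78 kb downstream, had 0.5398, 1.063 and 1.244 against 4.654, 3.759 and 3.104 rppm (-1.60 ± 0.32, adjusted p = 0.000117). FoB libraries were above MZB libraries in all 3 regions. In contrast, the upstream region at 14.17 kb, chosen after its values were seen, had 37.25, 36.95 and 38.25 rppm in wild-type MZB and 15.33, 21.88 and 19.82 rppm in wild-type FoB (0.98 ± 0.13, adjusted p = 2.08e-07). The start region between them had 42.91, 39.61 and 41.05 rppm in MZB and 49.83, 44.82 and 43.69 rppm in FoB and did not pass by limma (-0.16 ± 0.10, adjusted p = 0.241).

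**Figure D2:**
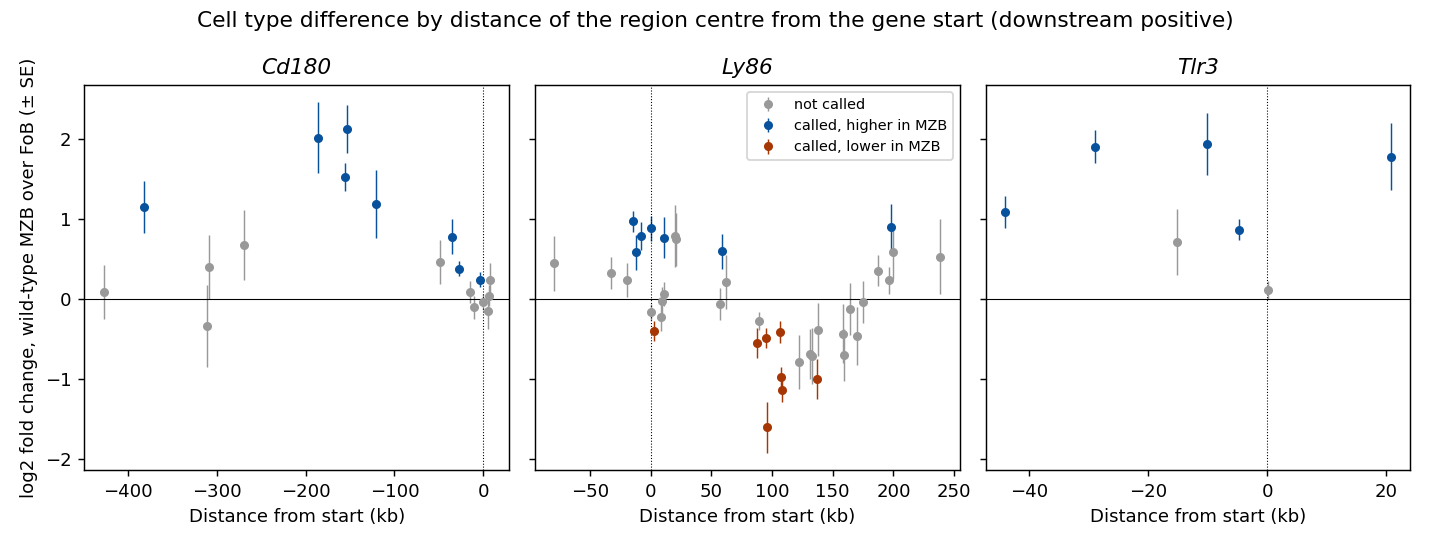
Log2 fold change of wild-type MZB over wild-type FoB (y axis, points; bars ± SE from limma) against the distance of each tested region from the gene start in kb (x axis, downstream positive) for *Cd180*, *Ly86* and *Tlr3*. The called *Cd180* regions all lie upstream and reach 2.13, while the called *Ly86* regions upstream of the start are higher in MZB and those around 108 kb downstream are lower.

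*Tlr4* had 19 regions, of which 2 lay in the gene and 17 lay more than 20 kb away, as far as 480044 bp. Of all its regions 2 were higher in wild-type MZB and 0 lower, against 1 and 1 with quantile normalisation, edgeR or DESeq2. The region across the lower-coordinate edge of the gene body, counted above among the starts, had 88.8, 99.16 and 90.81 rppm in wild-type MZB. In wild-type FoB it had 86.51, 102.3 and 104.3 rppm, which overlapped. The other region in the gene (chr4:66843093-66843744) had 37.25, 33.76 and 37.63 rppm in wild-type MZB and 18.62, 27.47 and 25.07 rppm in wild-type FoB, and every MZB library was higher (0.62 ± 0.13, adjusted p = 0.000221). In knockout libraries it had 37.08, 36.28 and 39.9 rppm in MZB and 17.38, 17.71 and 15.25 rppm in FoB, a gap of 1.15 ± 0.13 (adjusted p = 6.59e-09). The drop from wild-type to knockout FoB there, -0.47 ± 0.13, did not pass (adjusted p = 0.0905), but it did with edgeR (0.03) and without FoB wild-type library 1 (0.0124).

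Among the lipoprotein receptors, 2 *Tlr1* regions were at least 2-fold more accessible in wild-type MZB and 1 other was less accessible, and no *Tlr2* or *Tlr6* region passed by limma (3 of 8 and 1 of 4 at an unadjusted p under 0.05). With edgeR 5 *Tlr1*, 3 *Tlr2* and 1 *Tlr6* regions were lower in wild-type MZB, and with DESeq2 2, 2 and 1. The *Tlr1* region 19.79 kb downstream of the start (chr5:64912737-64913075) had 8.097, 7.178 and 7.464 rppm in wild-type MZB and 3.285, 3.855 and 2.388 rppm in wild-type FoB (1.16 ± 0.26, adjusted p = 0.000655). Knockout MZB had 3.498, 3.47 and 4.137 rppm there, below all wild-type MZB libraries, and knockout FoB had 2.483, 2.472 and 1.779 rppm. The difference between the MZB genotypes was -0.95 ± 0.26 and missed the threshold (adjusted p = 0.0776), and it passed with a pseudocount of 2 (0.0358), quantile normalisation (0.0436) and the compared groups alone (0.0403). The other region, 32.24 kb downstream, had 3.148 ± 0.766 against 1.376 ± 0.784 rppm (SD, n = 3; adjusted p = 0.0217) and was lost with quantile normalisation (0.232), edgeR (0.0604), DESeq2 (0.166) and without MZB wild-type library 2 (0.101) or FoB wild-type library 3 (0.217). *Tlr6*, the neighbour of *Tlr1*, had 4 regions in its body, and the most open had 41.17 ± 5.14 rppm in wild-type MZB and 42.68 ± 5.51 rppm in wild-type FoB (SD, n = 3), which overlapped.

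*Unc93b1*, the chaperone of the endosomal receptors, had 2 of 7 regions less accessible in wild-type MZB and none more, and 3 lower with quantile normalisation, edgeR or DESeq2. Its region inside the gene (chr19:3935765-3936402) had 6.747, 6.38 and 8.707 rppm in wild-type MZB and 11.5, 12.53 and 12.65 rppm in wild-type FoB (-0.72 ± 0.18, adjusted p = 0.00159). Knockout MZB had 10.73, 9.464 and 9.162 and knockout FoB 10.97, 8.445 and 9.658 rppm, which overlapped (0.02 ± 0.18, adjusted p = 0.955). Neither the change with knockout in MZB nor the difference of the knockout effects passed there, by limma or under any other setting. The smallest adjusted p over the other settings was 0.248 and 0.593. The most open *Unc93b1* region had 20.02 ± 0.901 rppm in wild-type MZB and 26.45 ± 1.52 rppm in wild-type FoB (SD, n = 3; -0.39 ± 0.13 SE, adjusted p = 0.0146), and the call was lost without FoB wild-type library 2 (0.0729). The adaptor gene *Myd88* had a region 5.467 kb downstream of the start with 8.907, 7.444 and 7.464 rppm in wild-type MZB and 3.285, 4.241 and 3.581 rppm in wild-type FoB (1.01 ± 0.26, adjusted p = 0.00231, and 0.0524 after quantile normalisation), while its start was at 21.34 ± 3.34 and 20.59 ± 3.77 rppm and overlapped.

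In knockout libraries MZB were more accessible than FoB at 24 regions (20%, against 23.2% of all tested) and less at 13 (10.8%, against 9.47%). Quantile normalisation gave 16 and 16, edgeR 19 and 23, and DESeq2 12 and 16. The counts over all 89782 tested regions were 12246 and 10867, 16479 and 14682, and 11848 and 9671 in that order. The wild-type and knockout contrasts share no library, and 23 regions were called in both in the same direction, 18 higher and 5 lower, which is 63.9% of the wild-type calls and 62.2% of the knockout calls. Over all tested regions these shares were 68.6% and 74.8%. No region of the set was called in opposite directions. Of the 8 *Cd180* regions all 8 were called in both genotypes, of 15 *Ly86* regions 8, of 5 *Tlr3* regions 3, and of 3 *Tlr1* regions 0. Another *Cd180* region, upstream of the gene, was lower in knockout MZB by limma. With other scalings fewer *Cd180* regions were higher in knockout MZB, 6 with quantile normalisation or edgeR and 4 with DESeq2. The lower count was 2 with quantile normalisation or edgeR, 1 of them in the gene body, and 1 with DESeq2. The knockout call 186.1 kb upstream was lost with quantile normalisation (0.0812) and DESeq2 (0.0515), and that 3.851 kb upstream with edgeR (0.167), DESeq2 (0.25) and without MZB knockout library 3 (0.0511). The log2 fold changes of the 120 regions had a Pearson r of 0.761 between the genotypes and those of all regions 0.806, as descriptions over regions that share libraries and are not independent.

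**Figure D3:**
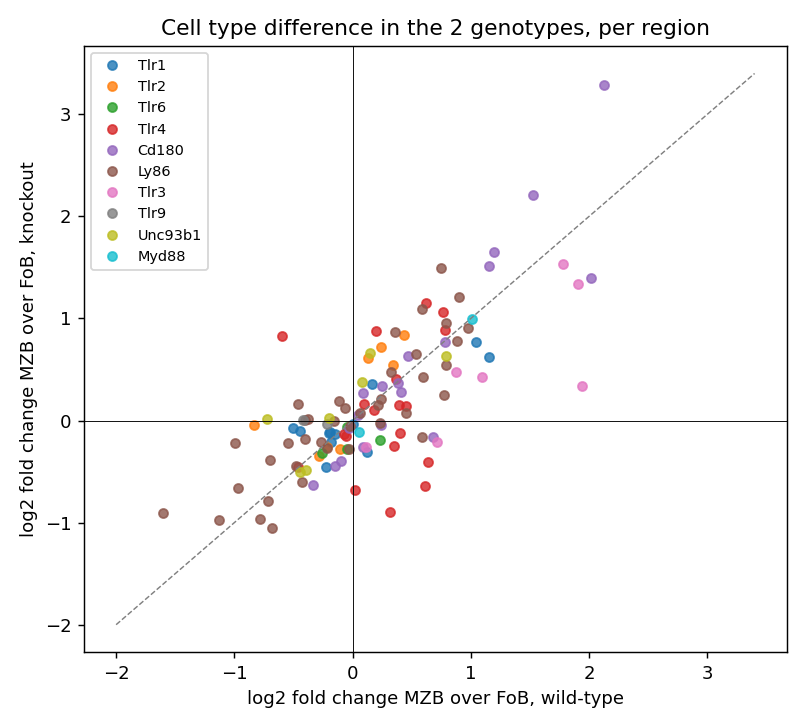
Log2 fold change of MZB over FoB in wild-type (x axis) and in knockout libraries (y axis) for the 120 tested regions, coloured by gene; the dashed line marks equality. The points spread along the line (Pearson r 0.761), and the *Cd180* region at 3.29 in knockout libraries lies above it.

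Few of these regions differed between the genotypes. In MZB 1 of 120 was called (0.833%, against 0.777% of all tested regions), and in FoB 2 were (1.67%, against 0.539%). At an unadjusted p under 0.05 there were 22 and 10. The share of all tested regions at that threshold is not given here, so no unadjusted count in the text can be set against the background. The median log2 fold change was 0.06 in MZB and 0.07 in FoB, against -0.02 in both over all regions. The knockout effect differed between MZB and FoB at 0 regions by limma, edgeR and DESeq2 (0% against 0.00111% of all by limma), with 13 at an unadjusted p under 0.05.

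The region that rose in MZB lies 25.59 kb upstream of *Tlr2* (chr3:83867057-83867345). It had 7.287, 8.507 and 8.396 rppm in wild-type MZB and 12.83, 15.46 and 14.78 rppm in knockout MZB, groups that did not overlap (0.79 ± 0.19, log2 ± SE, adjusted p = 0.0345). In FoB it had 7.118, 7.518 and 5.73 rppm in wild-type and 6.208, 10.09 and 9.658 rppm in knockout libraries, which overlapped (0.31 ± 0.19, adjusted p = 0.688), and the difference between the effects in MZB and FoB did not pass (0.49 ± 0.27, adjusted p = 0.819). The call held with edgeR (0.0273) and was lost with DESeq2 (0.189), with a pseudocount of 0.1 (0.0563) and without MZB wild-type library 1 (0.143), 2 (0.0781) or 3 (0.0925) or MZB knockout library 2 (0.147) or 3 (0.113). Its neighbour 21.62 kb upstream, the most open *Tlr2* region, had 46.75 ± 0.796 and 49.26 ± 4.81 rppm in wild-type and knockout MZB (SD, n = 3), and the *Tlr2* start 22.46 ± 2.47 and 20.82 ± 1.68 rppm. The regions of 6 myeloid marker genes, cells in which *Tlr2* is also active, summed to 256.1 to 268.8 rppm in wild-type MZB and 274 to 306.6 rppm in knockout MZB, and those of 4 dendritic cell genes to 354.8 to 381.9 and 385.1 to 404.3 rppm. All 6 and all 4 had regions in the table, of which 30 of 33 and 37 of 45 lay within 20 kb and were summed. In FoB the sums were 222.5 to 229.2 and 223.4 to 229.9 rppm for the myeloid list and 259.5 to 289.7 and 308.8 to 322.8 rppm for the dendritic list. The NK cell list (3 genes) also had higher sums in knockout MZB (293.7 to 323.5 against 268.8 to 287.9 rppm), as had the erythroid list of 2 genes (36.59 to 42.45 against 31.58 to 32.96 rppm), and all of these genes had regions. The T cell list overlapped (62.51 to 70.98 against 63.44 to 66.46 rppm). These sums took in 15 of 18 NK cell, 4 of 11 erythroid and 7 of 18 T cell regions. Of the single regions, 1 of 32 tested in the myeloid list and 1 of 45 in the dendritic list were higher in knockout MZB by limma, and 0 lower. Over all tested regions 0.502% were higher and 0.275% lower. They lie 11170 bp from *Adgre1* (0.48 ± 0.11, adjusted p = 0.0192) and in *Flt3* (0.43 ± 0.09, adjusted p = 0.0177). With edgeR or quantile normalisation 1 region of each list was also higher, and DESeq2 called none in either list. The part of these cells in the result was not tested.

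Both regions that fell in FoB belong to the pair upstream of *Cd180* that was more open in MZB. At 153.1 kb, knockout FoB had 0.2069, 0.4119 and 0.2542 rppm, below the 1.349 to 2.149 rppm of wild-type FoB (-1.54 ± 0.30, adjusted p = 0.00493), which rests on 4 reads against 30. That is a ratio of 0.178 with a 95% exact interval of counts of 0.0456 to 0.506. Knockout MZB had 6.997, 8.202 and 6.502 rppm there, within or near the wild-type MZB range (-0.37 ± 0.30, adjusted p = 0.631). The call held with edgeR (0.0401) and without any 1 library (up to 0.0423), and was lost with DESeq2 (0.271), a pseudocount of 2 (0.108) and the compared groups alone (0.0949). At 155.6 kb, knockout FoB had 3.311, 5.149 and 3.304 rppm, below the 6.297 to 7.401 rppm of wild-type FoB (-0.76 ± 0.18, adjusted p = 0.032), and knockout MZB had 19.12, 18.61 and 20.98 rppm, close to wild-type MZB (-0.07 ± 0.18, adjusted p = 0.902). This call was lost under 10 of 21 other settings, among them edgeR (0.0993), DESeq2 (0.467) and the leaving out of FoB wild-type library 1 (0.0531), 2 (0.0783) or 3 (0.173) or FoB knockout library 1 (0.167) or 3 (0.145). The gap between the cell types at the pair was 1.52 and 2.13 (log2) in wild-type libraries and 2.21 and 3.29 in knockout libraries, and the difference of the knockout effects did not pass (adjusted p = 0.742 and 0.735).

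**Figure D4:**
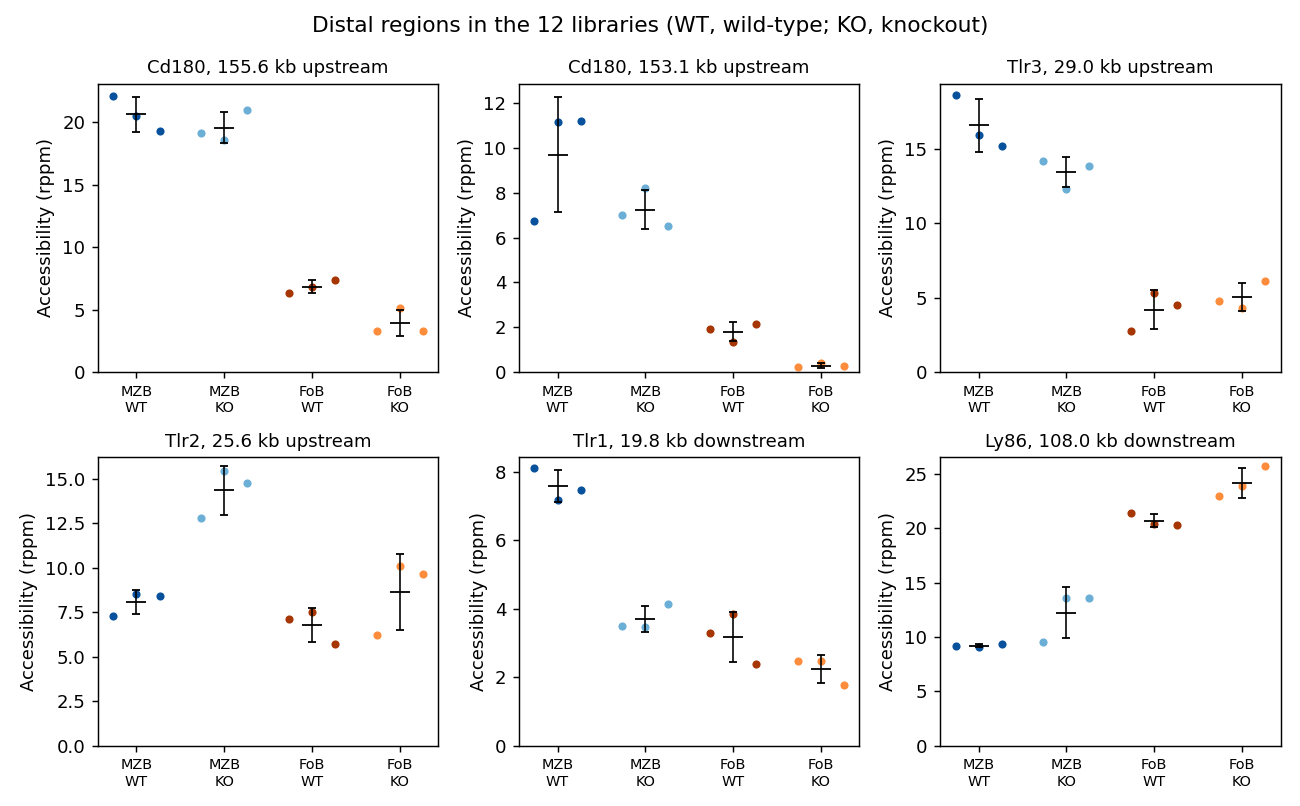
Accessibility (rppm, y axis) of 6 regions away from gene starts in the 4 groups (x axis); points are libraries, black bars the mean ± SD of 3. Knockout FoB lie below wild-type FoB at both *Cd180* regions, knockout MZB lie above wild-type MZB at the *Tlr2* region, and MZB lie below FoB at the *Ly86* region.

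Other genes of the pathway were read from lists of 40 genes. Of these 34 had regions, and *Tlr7*, *Tlr8*, *Tlr11*, *Tlr13*, *Irak1* and *Btk* had none assigned. In wild-type libraries 79 of their 313 tested regions were more accessible in MZB and 41 less (25.2% and 13.1%, against 24.2% and 11.4% of all tested regions), and in knockout libraries 66 and 24 (21.1% and 7.67%, against 23.2% and 9.47%). These shares were near the background by limma. Receptors and co-receptors (*Tlr5*, *Tlr12*, *Ly96* and *Cd14*) had 12 of 23 higher in wild-type MZB and 0 lower, and adaptors and kinases 22 and 18 of 124. Trafficking and processing genes had 14 and 8 of 40, transcription factors 3 and 10 of 42, and inhibitors 28 and 5 of 84. The median log2 fold change of these lists was 0.68, 0.04, 0.32, -0.15 and 0.35 in that order, against 0.18 over all regions. The wild-type totals were 53 and 52 with quantile normalisation, 62 and 69 with edgeR and 45 and 49 with DESeq2. Among them the receptors had 8, 10 and 6 higher and 0 lower. The knockout totals were 37 and 36 with quantile normalisation, 42 and 57 with edgeR and 32 and 30 with DESeq2.

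With knockout 1 of the 313 regions was called in MZB by limma (0.319%, against 0.777% of all tested regions). In FoB 0 were called (against 0.539%), and none in either cell type by edgeR or DESeq2. At an unadjusted p under 0.05 there were 29 and 27, again without a background share. The called region, 7786 bp from *Irf8*, a transcription factor of myeloid and B cells, rose in MZB from 9.716, 7.178 and 5.287 rppm to 9.796, 15.77 and 12.71 rppm (0.76 ± 0.19, adjusted p = 0.0428). In wild-type FoB it had 15.33, 11.86 and 13.85 rppm and in knockout FoB 15.31, 12.36 and 13.72 rppm, which overlapped. All 3 values of knockout MZB were above those of wild-type MZB, but the lowest, 9.796 rppm, was less than 1 read above the highest wild-type value, 9.716 rppm. In these libraries 1 read was 0.2332 rppm (MZB knockout 1) and 0.2699 rppm (MZB wild-type 1).

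For the most open region of each gene, the most similar region on another chromosome over the 12 libraries was sought among regions of at least 10 rppm, by Pearson r of log2(rppm + 0.5). The *Tlr3* region 4.776 kb upstream was most like one in *Hdac9* (r = 0.966 of 24252 searched), and its 12 libraries spanned a 2.28-fold range. The *Cd180* region 3.851 kb upstream was most like one 60758 bp from *Zc3h12c* (r = 0.977), and the *Tlr9* start like one in *E2f2* (r = 0.924). The *Ly86* start was most like a region in *Eno1* (r = 0.936) and the *Myd88* start one in *Snrpb2* (r = 0.834). These are the highest of many values over libraries that differ little, and are given as descriptions.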

How the data were processed

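Chromatin accessibility was read from 1 deposited table of 94161 regions by 12 libraries. The authors deposited reads per peak in RPM, per the file headers, and each column summed to 1000000 over the listed regions. Bowtie 1.1.1, MACS2 and mm10 are named in the submitters' processing notes, while no source used here gives the merging of peaks, read filters, Tn5 offset or coordinate base, so positions stand as deposited. All values were whole multiples of 1 read within a tolerance of 0.01 (100% of values), so read counts were recovered.

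Values were tested with limma 3.58.1 in R 4.3.3 on log2(rppm + 0.5), with 4 group coefficients over 12 libraries, a mean-variance trend and two-sided tests. A fold change on this scale understates changes of low regions. The filter kept 89782 regions that reached 1 rppm in 3 or more libraries. Genes were taken from a RefSeq table of GRCm38.p6 (21896 protein-coding genes), and 92 regions on scaffolds had none. Starts came from the promoter table, which has strands, and exons and introns were not used here. No genome was used here, so distal regions are given without sequence. The recovered reads were also tested with edgeR 4.0.16 and DESeq2 1.42.0, and counts, ranges and figures were made with Python 3.11.15. The fit was tested on simulated data.

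The genes, lists, settings and the rule for named regions were chosen with earlier results of these data known. Regions were named for each gene by the highest mean, the start, the smallest p between wild-type MZB and FoB, any knockout call, and any wild-type cell type call of at least 2-fold. Of the marker lists for other cells, T cells had regions for 4 of 5 genes, and the sums of these lists stand with the results. The B lineage marker list is not reported here.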

Additional observations from a re-analysis of the deposited data

How the results depend on the processing

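None of the named regions that passed the test changed direction under any setting tried. Of 42 passing results of the 36 named regions, 24 passed under all alternatives and 29 without any 1 library. Of 138 that did not pass, 123 passed under none. DESeq2 gave no adjusted p for 10. The regions higher in wild-type MZB numbered 25, and 15 with quantile normalisation, 15 with DESeq2 and 13 when only regions within 20 kb of a gene were counted. Those lower numbered 11, and 23 with quantile normalisation, 28 with edgeR, 21 with DESeq2 and 4 within 20 kb. In knockout libraries the 24 higher became 12 with DESeq2 and 9 within 20 kb, and the 13 lower became 23 with edgeR and 5 within 20 kb. The knockout count in MZB was 1, and 0 with a pseudocount of 0.1, DESeq2 or within 20 kb, and 3 with a pseudocount of 2, quantile normalisation or the compared groups alone. In FoB it was 2, and 1 with quantile normalisation and 0 with a pseudocount of 2, the compared groups alone, DESeq2 or within 20 kb. The cause of these shifts was not tested, apart from the counts within 20 kb, which use fewer regions.

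Leaving out 1 library gave 18 to 25 higher and 7 to 12 lower in wild-type libraries (7 without FoB wild-type 2), 21 to 25 and 8 to 13 in knockout libraries (8 without MZB knockout 1 or any 1 FoB knockout library), 0 to 1 knockout calls in MZB (0 without any 1 MZB wild-type library or MZB knockout 2), 1 to 2 in FoB and 0 to 0 for the difference of effects. Without MZB knockout 3 the single MZB call was another region, near *Tlr4* (adjusted p = 0.0336), not that near *Tlr2*. Libraries with the same number shared only the number: their deviations correlated at -0.0934 to 0.134, 1 of 12 pairs was over 0.1 and 4 libraries were most like their own number. A replicate block gave 25 and 11, 25 and 13, 1, 2 and 0. Depth limits the sparse regions most, where groups held 1 to 4 reads.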
